A study of Mus musculus with 6 samples.

Results

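Chad, the gene of chondroadherin, marked a small population of fibroblasts in the mouse mitral valve. These Chad cells numbered 1985 of the 58351 cell barcodes in the deposited matrices and made up 5.73% of the 34660 fibroblasts. They were chosen by measured values: a barcode had at least 300 genes and at most 10% of its unique molecular identifiers (UMIs, the counted transcript molecules) from mitochondrial genes, Dcn, Col1a1 and Col1a2 together gave at least 1% of its UMIs, it had no UMI of Ptprc or Pecam1, and it held at least 1 Chad UMI and at least 2 UMIs of Chad, Comp and Cnmd together. The study used single-cell RNA sequencing of live cells sorted from digested mitral valves, with 6 libraries in all. K/B.g7 mice carry the KRN T cell receptor transgene together with the I-Ag7 MHC class II allele, and are a model of arthritis driven by autoantibodies in which the mitral valve is inflamed. B.g7 mice carry I-Ag7 without the T cell receptor transgene and served as the controls. Each genotype gave 1 library at 3, 8 and 25 weeks of age, which the labels call inflamed for K/B.g7 and control for B.g7. The labels do not give the number or sex of the mice behind a library. No age had a second library of the same genotype, so the 3 ages stood in for replicates of a genotype. No p-value reaches wider than these 6 libraries. Those of gene tests rest also on a model of counts and on variance estimates shared across genes.

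Chondroadherin is a leucine-rich repeat protein of cartilage matrix that binds collagen and integrins. Comp, cartilage oligomeric matrix protein, is a thrombospondin that assembles collagen fibrils in cartilage and tendon, and Cnmd encodes chondromodulin, a cartilage glycoprotein that inhibits blood vessel growth and is also known from heart valves. Valve interstitial fibroblasts lay down the collagen, proteoglycan and elastic layers of the leaflets, and the chordae that tether the leaflets resemble tendon. In cartilage, SOX9 with SOX5 and SOX6 turns on collagen II and aggrecan. In tendon, scleraxis and tenomodulin are the usual markers.

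Chad lies on mouse chromosome 11 at 94565047 to 94569127 on the plus strand, Comp on chromosome 8 at 70373558 to 70382066 on the plus strand, and Cnmd on chromosome 14 at 79637690 to 79662170 on the minus strand (GRCm38, GENCODE annotation). The promoters of Chad and Cnmd, from 250 bases before the annotated start to 50 bases after it, are given because these genes chose the cells and SOX factors are the textbook regulators of cartilage genes (RefSeq, GRCm38.p6, 5′ to 3′ on the gene's strand). Capitals mark the letters TATAAA, searched for after the sequence had been seen.
Chad promoter, chr11:94564797-94565096, plus strand: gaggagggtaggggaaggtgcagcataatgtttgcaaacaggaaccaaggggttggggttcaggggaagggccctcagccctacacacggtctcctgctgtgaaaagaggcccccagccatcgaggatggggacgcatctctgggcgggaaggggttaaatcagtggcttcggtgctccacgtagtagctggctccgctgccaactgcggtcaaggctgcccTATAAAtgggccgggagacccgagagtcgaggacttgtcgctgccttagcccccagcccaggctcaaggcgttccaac
Cnmd promoter, chr14:79662134-79662433, minus strand: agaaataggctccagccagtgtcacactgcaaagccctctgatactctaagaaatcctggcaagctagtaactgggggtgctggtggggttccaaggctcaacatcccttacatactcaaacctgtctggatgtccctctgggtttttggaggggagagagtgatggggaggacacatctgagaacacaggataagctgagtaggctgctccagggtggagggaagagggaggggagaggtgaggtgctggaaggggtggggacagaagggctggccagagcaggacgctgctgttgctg
A first form of the SOX core motif, ACAATG, was searched on both strands and was present in 12.6% of 32851 RefSeq promoters of this length. Another form, ACAAAG, was present in 18.7% of them, and the remaining form, with an A at its end, ACAATA, in 9.13%. At least 1 of the 3 forms was held by 34.1% of all promoters and by neither of the printed windows. Of the 21 genes in a list of cartilage matrix genes, 15 had a promoter entry and 2 of those held a SOX core motif. The letters TATAAA began 28 bases before the start of Chad and were present in 13.6% of the promoters. A match or its absence describes these letters in this window only.

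The 6 libraries held 15196750 to 69152541 UMIs each. Chad cells numbered 305, 161 and 990 in the K/B.g7 libraries of 3, 8 and 25 weeks, and 117, 51 and 361 in the B.g7 libraries of the same ages. Their summed UMIs ranged from 192833 in the B.g7 library of 8 weeks to 3765479 in the K/B.g7 library of 25 weeks, so levels in B.g7 at 8 weeks were the least precise. Median UMIs per Chad cell were 5000, 5575 and 3509.5 in K/B.g7 and 3551, 2213 and 6024 in B.g7, against 4397.5, 4229 and 2964 in K/B.g7 fibroblasts without a Chad UMI and 3392.5, 4762.5 and 5858 in those of B.g7. Chad cells were thus deeper than the other fibroblasts in 5 libraries and shallower in B.g7 at 8 weeks. A doublet ranking (Scrublet) marked 234 Chad cells, 11.8%, and 18.2% in K/B.g7 at 25 weeks, where it marked 15.2% of the other fibroblasts. Between pairs of libraries, 6 to 73 barcodes were shared, and 1 barcode was a Chad cell in more than 1 library.

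The genes that chose the cells are described without a test. In the K/B.g7 libraries, Chad cells of 3, 8 and 25 weeks summed to 1525, 1130 and 2235 Chad counts per 1000000 UMIs (CPM). The B.g7 libraries of the same ages gave 1661, 1224 and 1829 CPM. A Chad cell held a median of 6, 3 and 4 Chad UMIs in K/B.g7 and 3, 2 and 5 in B.g7, with a highest count of 171 in 1 cell. Chad cells held 82.0% of the 20832 Chad UMIs in the series. Close to the threshold, 106 Chad cells had 1 Chad UMI and a sum of exactly 2, and 451 fibroblasts with 1 Chad UMI and a sum of 1 fell outside. The K/B.g7 library of 25 weeks held 85 of the Chad cells just inside the threshold and 322 of the fibroblasts just outside it.

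Comp was frequent in Chad cells, in part by choice, since a cell with 1 Chad UMI needed a UMI of Comp or Cnmd. It was detected in 1923 Chad cells, 96.9%, at 6274, 3676 and 4018 CPM in K/B.g7 and 5476, 5150 and 5126 CPM in B.g7. In fibroblasts without Chad it stood at 392, 321 and 385 CPM in K/B.g7 and 171, 248 and 396 CPM in B.g7, and 7420 of those 32224 cells held a Comp UMI. Pecam1 cells held Comp in 18.3% to 58.5% of cells by library, and in B.g7 at 8 weeks their level, 487 CPM, was above that of fibroblasts without Chad. Cnmd was sparse, with a UMI in 78 Chad cells, 3.93%. Its level was 81.1, 12.3 and 6.64 CPM in K/B.g7 Chad cells and 65.3, 0 and 9.62 CPM in B.g7 Chad cells, so both libraries of 3 weeks were the highest. All 3 genes were found together in 74 cells, and 58 cells qualified on Chad alone.

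Chad UMIs were also counted in cells outside the fibroblast gate, where the part of free RNA or mixed droplets was not tested. Among cells with a Ptprc UMI, 32 of 1973 held a Chad UMI, and among those with a Pecam1 UMI, 78 of 4092 did. The share in Pecam1 cells was 0.259%, 0.786% and 4.86% in K/B.g7 and 0.538%, 0.164% and 1.61% in B.g7. The K/B.g7 library of 25 weeks stood apart, with an exact binomial 95% interval of 3.76% to 6.18%. In CPM, Chad in Pecam1 cells was 0.440, 7.01 and 26.1 in K/B.g7 and 0.733, 0.363 and 2.27 in B.g7, far below the Chad cells in each library.

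As a share of fibroblasts, Chad cells were more frequent in K/B.g7 than in B.g7 at each of the 3 ages. They formed 7.89% (exact binomial 95% interval 7.06 to 8.78), 2.79% (2.38 to 3.25) and 7.31% (6.88 to 7.76) of K/B.g7 fibroblasts at 3, 8 and 25 weeks. In B.g7 they formed 4.24% (3.52 to 5.06), 1.75% (1.31 to 2.30) and 6.2% (5.60 to 6.85). The ranges of the genotypes overlapped, and both 8-week libraries were the lowest of their genotype. K/B.g7 averaged 6.0% ± 2.79 and B.g7 averaged 4.06% ± 2.23 (SD over 3 libraries each), a difference of 1.93 percentage points with p = 0.4 in a two-sided exact permutation test whose smallest possible p is 0.1. Within ages the differences were 3.65, 1.04 and 1.11 percentage points, with an SD of 1.49, and an exact permutation test paired by age gave p = 0.25, the smallest that 3 pairs allow. With every fibroblast thinned to 2000 UMIs, to remove differences in depth, the shares were 6.39%, 2.05% and 6.25% in K/B.g7 and 3.43%, 0.745% and 4.81% in B.g7 (p = 0.3, exact permutation test). Thinning left out the shallower cells, 344, 637 and 2040 in K/B.g7 and 402, 493 and 293 in B.g7. Intervals cover counting error only. The Chad, Comp and Cnmd part of the rule was also met by some Pecam1 cells. These were 1 of 386, 3 of 636 and 25 of 1295 in K/B.g7, in order of age. In B.g7 they were 1 of 186, 1 of 1217 and 4 of 372. The part of free RNA or mixed droplets in the shares was not tested.

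**Figure D1:**
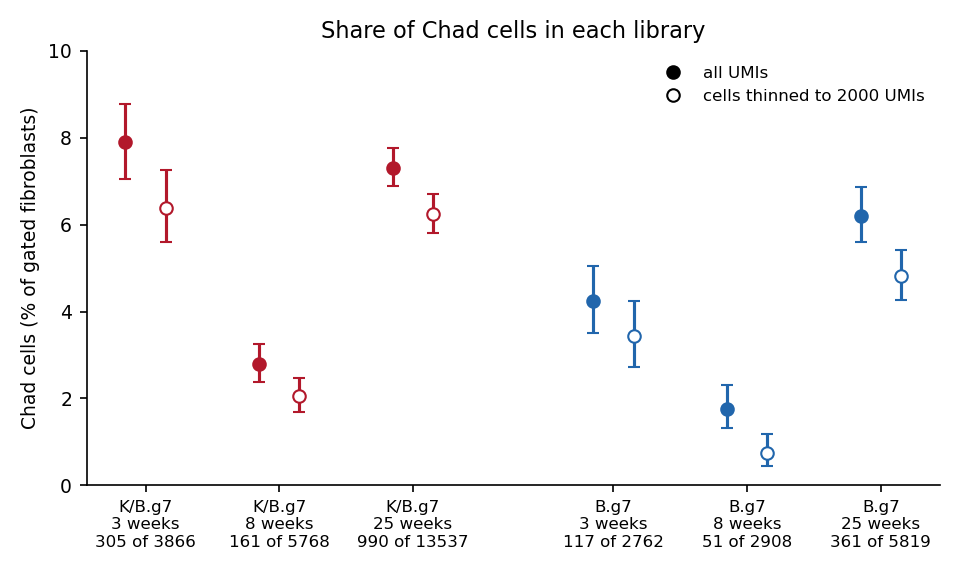
Chad cells as a percentage of fibroblasts in each library, by age in weeks, with exact binomial 95% intervals, for K/B.g7 left of B.g7. Filled points use all UMIs, open points cells thinned to 2000 UMIs, and the numbers under the axis are Chad cells of all fibroblasts. The K/B.g7 value is above the B.g7 value at each age, and both genotypes are lowest at 8 weeks.

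To learn what Chad cells share beyond the genes that chose them, their summed counts in each library were compared with those of the 32224 other fibroblasts that passed the same gates and had no Chad UMI. Of 11882 genes tested, 1342 were higher in Chad cells (11.3%) and 1409 lower (11.9%) at an adjusted p under 0.05 (edgeR's quasi-likelihood test with the library as a block, Benjamini-Hochberg adjustment over all genes tested). The median difference over all genes was -0.02 on the log2 scale. Matrix genes of cartilage and tendon were among the largest increases, and chemokines and genes of other fibroblast groups among the largest decreases. Against comparison cells drawn to the same depth, 844 genes were higher and 767 lower.

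Cartilage matrix genes were higher as a list. Of 16 tested, 15 rose in Chad cells and none fell, with a median log2 difference of 3.12. Col9a2 did not pass (0.81 ± 0.33, adjusted p = 0.096). Col2a1, Matn1, Matn3 and Mia were not tested, since too few of the summed cell groups held enough counts. Col2a1 had 2345 UMIs in Chad cells, 2304 of them in the libraries of 3 weeks. Acan, which encodes aggrecan, the large proteoglycan of cartilage, averaged 64.9 ± 61.4 CPM in Chad cells and 1.78 ± 2.36 CPM in other fibroblasts (SD, n = 6 libraries each). The lowest Chad cell value, 15.3 CPM, was above the highest value of the other fibroblasts, 6.53 CPM. The fitted log2 difference was 5.20 ± 0.21 (SE, adjusted p = 1.7e-11).

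Clec3a, a cartilage-derived C-type lectin, showed the largest fitted difference of any gene named by a fixed rule. It stood at 68.5, 34.7 and 17.8 CPM in K/B.g7 Chad cells and 9.33, 10.4 and 16.2 CPM in B.g7 Chad cells, against at most 0.752 CPM in other fibroblasts. The log2 difference was 5.92 ± 0.34 (adjusted p = 1.5e-09). Cilp2, a cartilage intermediate layer protein, averaged 453 ± 316 CPM in Chad cells against 16.1 ± 12.6 CPM in other fibroblasts (log2 difference 4.90 ± 0.13). Col11a1, a chain of the collagen XI that nucleates cartilage fibrils, averaged 305 ± 273 CPM against 14.5 ± 12 CPM (log2 difference 4.33 ± 0.15). For each of these genes the groups did not overlap.

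The cartilage list also held Prg4, Cytl1 and Ucma. Prg4, which encodes the joint lubricant lubricin, was at 2728, 5027 and 3799 CPM in K/B.g7 Chad cells and 2416, 3858 and 3866 CPM in B.g7 Chad cells. In other fibroblasts it was at 379, 1289 and 892 CPM in K/B.g7 and 286, 471 and 485 CPM in B.g7. The groups did not overlap (log2 difference 2.71 ± 0.14). Cytl1, a secreted factor of chondrocytes, averaged 2045 ± 1071 CPM against 264 ± 148 CPM. Ucma, an inhibitor of mineralisation made in cartilage, averaged 245 ± 188 CPM against 29.5 ± 21.2 CPM, with ranges that overlapped across libraries although Chad cells were higher in all 6 (log2 difference 3.03 ± 0.10).

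Tendon and ligament genes behaved in the same direction, with 10 of 13 tested higher, 2 lower (Col14a1 and Dpt) and a median log2 difference of 2.73. Fmod, fibromodulin, which organises collagen fibrils in tendon, was detected in 84.2% of Chad cells and averaged 1997 ± 599 CPM in them against 127 ± 50.4 CPM in other fibroblasts (log2 difference 4.07 ± 0.14). Scx, the tendon transcription factor scleraxis, averaged 371 ± 186 CPM against 47.1 ± 25.7 CPM (3.02 ± 0.10). Thbs4, a thrombospondin of tendon and muscle, averaged 797 ± 437 CPM against 81.0 ± 53.1 CPM (3.37 ± 0.30). The groups did not overlap for these 3 genes.

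Tnmd, tenomodulin, was less uniform. It was at 101, 129 and 45.7 CPM in K/B.g7 Chad cells and 257, 0 and 59.0 CPM in B.g7 Chad cells, against 0.519 to 24.7 CPM in other fibroblasts. Only the shallow B.g7 library of 8 weeks was below its own comparison cells. The fitted log2 difference was 3.38 ± 0.18 (adjusted p = 9.7e-10).

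**Figure D2:**
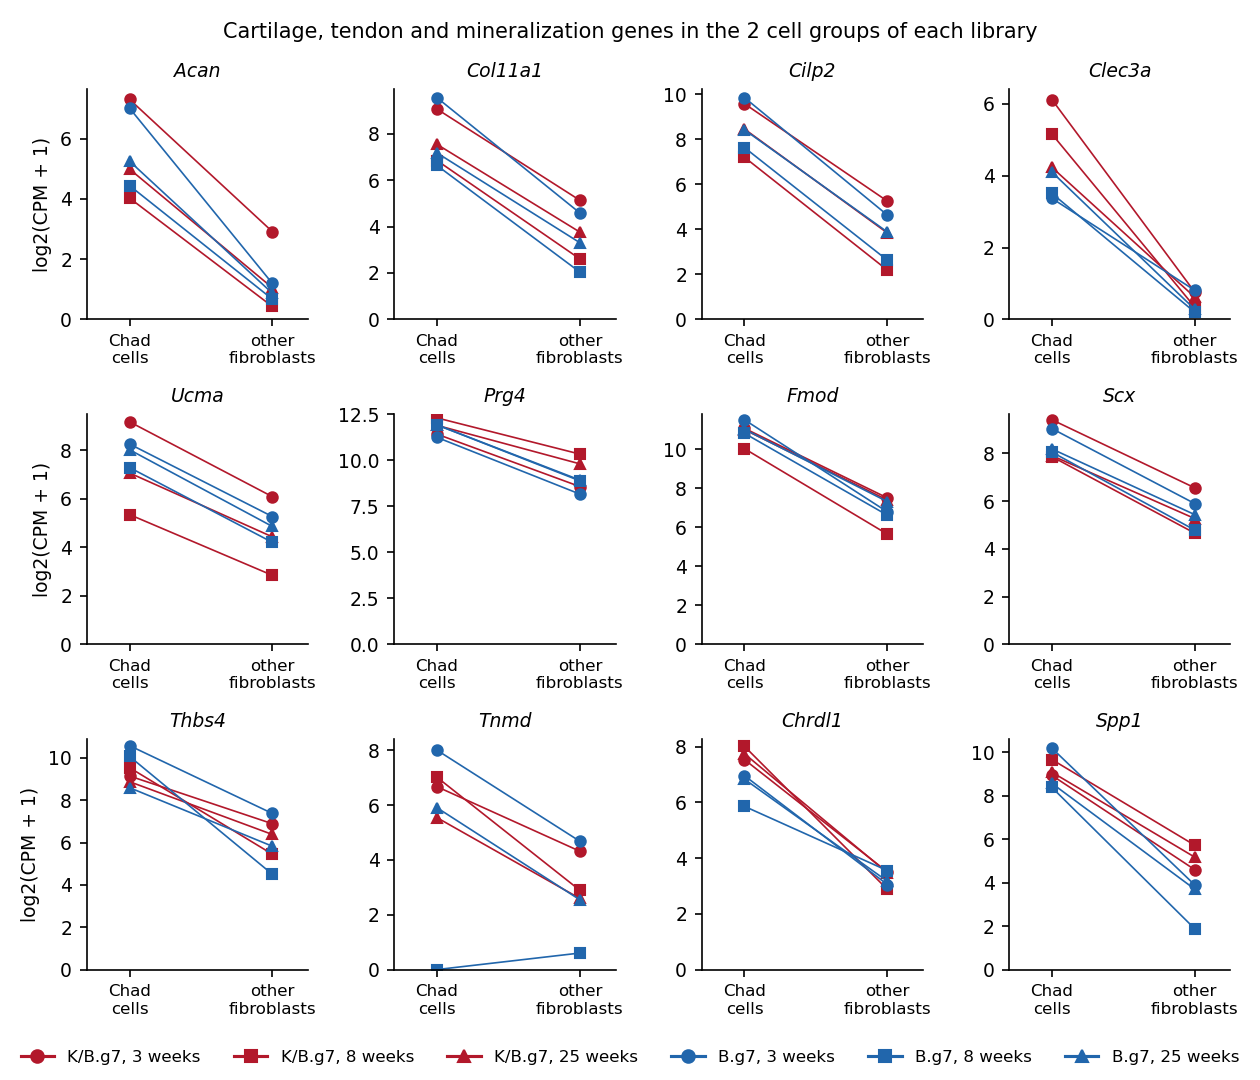
Levels of 12 matrix, tendon, BMP-antagonist and mineralisation genes as log2(CPM + 1) in each of the 6 libraries, Chad cells left of other fibroblasts. Each point is the summed count of one library, and Chad cells are above the other fibroblasts of the same library for each gene except Tnmd in B.g7 at 8 weeks.

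The transcription factors of cartilage gave a mixed check of the label. Of 11 tested, 6 rose (Foxc1, Hif1a, Runx1, Sox6, Sox9 and Trps1) and none fell, with a median log2 difference of 0.47. Sox9 itself was at 214, 182 and 312 CPM in K/B.g7 Chad cells and 175, 150 and 237 CPM in B.g7 Chad cells. Other fibroblasts had 129, 166 and 244 CPM in K/B.g7 and 151, 208 and 154 CPM in B.g7, so the ranges overlapped and the log2 difference was 0.38 ± 0.12 (adjusted p = 0.023). Runx1, a factor of early chondrogenesis, averaged 193 ± 33.2 CPM against 55.7 ± 9.43 CPM with no overlap (1.84 ± 0.08), and Sox6 averaged 48.1 ± 20.5 CPM against 17.5 ± 1.95 CPM (1.59 ± 0.15).

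Detection per cell set a limit on the word chondrogenic. Sox9 was detected in 52.2% of Chad cells, Acan in 12.7% and Col2a1, the defining collagen of cartilage, in 2.27%. In other fibroblasts Sox9 was detected in 34.8% to 46.1% of cells by library, and in B.g7 at 8 weeks it was less frequent in Chad cells, 33.3% against 46.1%. Acan was found in 29.8%, 3.73% and 7.68% of K/B.g7 Chad cells and 22.2%, 7.84% and 13.6% of B.g7 Chad cells. Its share was at most 1.53% in other fibroblasts and at most 1.61% in Pecam1 cells of any library. Scx was detected in 49.8% of Chad cells, Thbs4 in 41.8% and Tnmd in 8.21%. Because the list of cartilage genes rose together with the tendon list while collagen II was rare, the members are called Chad cells here.

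Mineralisation genes, including both inhibitors and bone matrix proteins, rose in 7 of 10 tested and fell in none (median 0.97). Spp1, osteopontin, a phosphoprotein of bone and inflamed tissue, was at 488, 810 and 541 CPM in K/B.g7 Chad cells and 1164, 332 and 378 CPM in B.g7 Chad cells. Other fibroblasts had 2.67 to 51.8 CPM, with no overlap (log2 difference 4.91 ± 0.30, adjusted p = 3.4e-09). The inhibitors Mgp, Enpp1 and Ank were each higher in all 6 libraries without overlap. Mgp, matrix Gla protein, averaged 21012 ± 9519 CPM against 8915 ± 1526 CPM (1.19 ± 0.09), Enpp1, which makes pyrophosphate, 83.7 ± 18.9 CPM against 27.3 ± 8.59 CPM (1.64 ± 0.10), and Ank, which exports it, 82.1 ± 23.9 CPM against 21.2 ± 4.0 CPM (2.00 ± 0.12).

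Wnt genes moved in both directions. Of 15 tested, 7 rose (Axin2, Dkk3, Frzb, Sfrp2, Wif1, Wnt5a and Wnt9a) and 3 fell (Sfrp1, Sfrp4 and Wnt4). Wif1, a Wnt inhibitor, averaged 1149 ± 451 CPM in Chad cells against 287 ± 82.0 CPM in other fibroblasts (2.06 ± 0.14), Frzb 409 ± 42.0 CPM against 154 ± 25.7 CPM (1.47 ± 0.09), and Sfrp2 463 ± 428 CPM against 100 ± 57.7 CPM (2.10 ± 0.28). Sfrp1, another secreted Wnt antagonist, went the other way, at 73.6 ± 26.2 CPM against 204 ± 57.0 CPM (-1.37 ± 0.15). Of 20 TGF-beta and BMP genes tested, 6 rose and 3 fell, with a median log2 difference of 0.04. Chrdl1, a BMP antagonist and 1 of the 6, was at 185, 257 and 214 CPM in K/B.g7 Chad cells and 124, 57.0 and 113 CPM in B.g7 Chad cells, against 6.36 to 10.7 CPM in other fibroblasts (4.29 ± 0.20).

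Genes that restrain or promote blood vessel growth moved in both directions. Of 15 tested, 6 rose (Angptl1, Angptl7, Serpinf1, Thbs1, Thbs2 and Timp3) and 5 fell (Angpt1, Pgf, Vegfa, Vegfb and Vegfd). Thbs1, thrombospondin 1, averaged 1705 ± 666 CPM in Chad cells against 442 ± 145 CPM in other fibroblasts (1.97 ± 0.07). Timp3, which blocks metalloproteinases and VEGF receptor binding, averaged 2081 ± 684 CPM against 843 ± 291 CPM (1.36 ± 0.08). Vegfa, the main vessel growth factor, averaged 25.3 ± 11.1 CPM against 59.5 ± 14.5 CPM with no overlap (-0.98 ± 0.17).

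Receptors that bind collagen and matrix rose in 12 of 19 tested and fell in 3 (Ddr2, Itgb3 and Sdc2). Itga11 and Itga10, both collagen-binding integrin chains, averaged 35.9 ± 9.38 CPM against 16.2 ± 2.36 CPM and 22.9 ± 7.34 CPM against 9.06 ± 2.79 CPM. The structural collagens had no common direction, with 4 higher and 5 lower of 14. Col8a2 averaged 124 ± 29.2 CPM against 11.0 ± 3.93 CPM (3.52 ± 0.10), while the basement membrane gene Col4a1 averaged 168 ± 94.4 CPM against 360 ± 152 CPM (-1.11 ± 0.10). Elastic fibre genes were likewise split, with 7 higher and 8 lower of 19. Ltbp2 averaged 287 ± 44.1 CPM against 60.3 ± 20.1 CPM (2.30 ± 0.12), and Efemp1, fibulin 3, averaged 14.7 ± 12.1 CPM against 106 ± 62.9 CPM (-2.47 ± 0.24).

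Chemokine genes were lower in Chad cells. Of 16 chemokine and cytokine genes tested, 10 fell and none rose (median -0.74). Ccl7, a monocyte attractant, averaged 46.0 ± 45.2 CPM against 285 ± 157 CPM (-2.57 ± 0.18), and Cxcl1, a neutrophil attractant, 318 ± 230 CPM against 926 ± 333 CPM (-1.59 ± 0.16). Both were lower in Chad cells in all 6 libraries. Type I interferon genes fell in 6 of 12 tested and genes of MHC class I and the interferon-gamma response in 5 of 19, with none higher in either list. No MHC class II gene passed among 6 tested.

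Of 12 markers of other fibroblast groups, 8 fell and 4 rose (Cilp, Mmp3, Thbs4 and Wif1). Smoc2 averaged 73.7 ± 61.4 CPM in Chad cells against 428 ± 64.7 CPM in other fibroblasts (-2.47 ± 0.24), with no overlap. Outside that list, Dpep1, a membrane dipeptidase, averaged 59.8 ± 56.9 CPM against 393 ± 152 CPM (-2.64 ± 0.25), and Lamb1, a laminin chain, 29.0 ± 26.3 CPM against 194 ± 67.5 CPM (-2.59 ± 0.22). Pi16 was at 595 ± 159 CPM against 1194 ± 379 CPM (-0.95 ± 0.18) and overlapped between the groups. Summed markers of endothelium were at 6.91 to 49.7 CPM in Chad cells and 41.7 to 82.4 CPM in other fibroblasts, and those of macrophages at 0 to 226 CPM against 10.6 to 47.5 CPM. The highest macrophage sum was in B.g7, where 1 cell of 3 weeks held 41 of the 58 C1qa UMIs of all Chad cells.

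A second comparison used fibroblasts that express Wif1 but no Chad, with 5896 cells. Which fibroblast group is most alike to Chad cells was not tested. Of 10515 genes tested, 724 were higher in Chad cells (6.89%) and 686 lower (6.52%). Of 14 cartilage matrix genes tested, 14 were higher (median log2 difference 1.73), and 10 of 13 tendon genes were higher with 1 lower, Dpt. Leaving out the library block, 211 genes were higher and 173 lower.

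Thbs4 and Spp1 were among the genes higher in Chad cells than in Wif1 fibroblasts. Thbs4 averaged 797 ± 437 CPM in Chad cells and 65.2 ± 33.0 CPM in Wif1 fibroblasts (log2 difference 3.52 ± 0.29, adjusted p = 3.9e-07). Spp1 averaged 619 ± 315 CPM in Chad cells and 33.4 ± 42.8 CPM in Wif1 fibroblasts (4.55 ± 0.37). Clec3a, Acan, Cilp2 and Col11a1 were higher by 4.26 ± 0.28, 3.68 ± 0.23, 3.41 ± 0.15 and 3.20 ± 0.20 on the log2 scale. Col22a1, a collagen of tissue junctions that include the muscle-tendon junction, averaged 26.6 ± 25.2 CPM against 1.68 ± 0.578 CPM (3.55 ± 0.27).

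Other genes differed less from Wif1 fibroblasts or did not pass. Ucma and Prg4 differed by 1.14 ± 0.11 and 1.12 ± 0.12 on the log2 scale. Sox9 averaged 212 ± 57.7 CPM in Chad cells and 245 ± 51.9 CPM in Wif1 fibroblasts, a difference that did not pass (-0.11 ± 0.11, adjusted p = 0.58). Dkk3, a secreted modulator of Wnt signalling, averaged 883 ± 181 CPM against 898 ± 152 CPM and did not pass either (adjusted p = 0.91). Of 12 Wnt genes tested, 3 were higher (Frzb, Sfrp2 and Wnt9a), and the median log2 difference was -0.50. Lower were 6 (Lef1, Notum, Rspo3, Sfrp1, Wnt16 and Wnt5a), so Wnt5a went the other way than against other fibroblasts. Axin2 did not pass. The 14 collagens showed 8 higher and none lower.

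**Figure D3:**
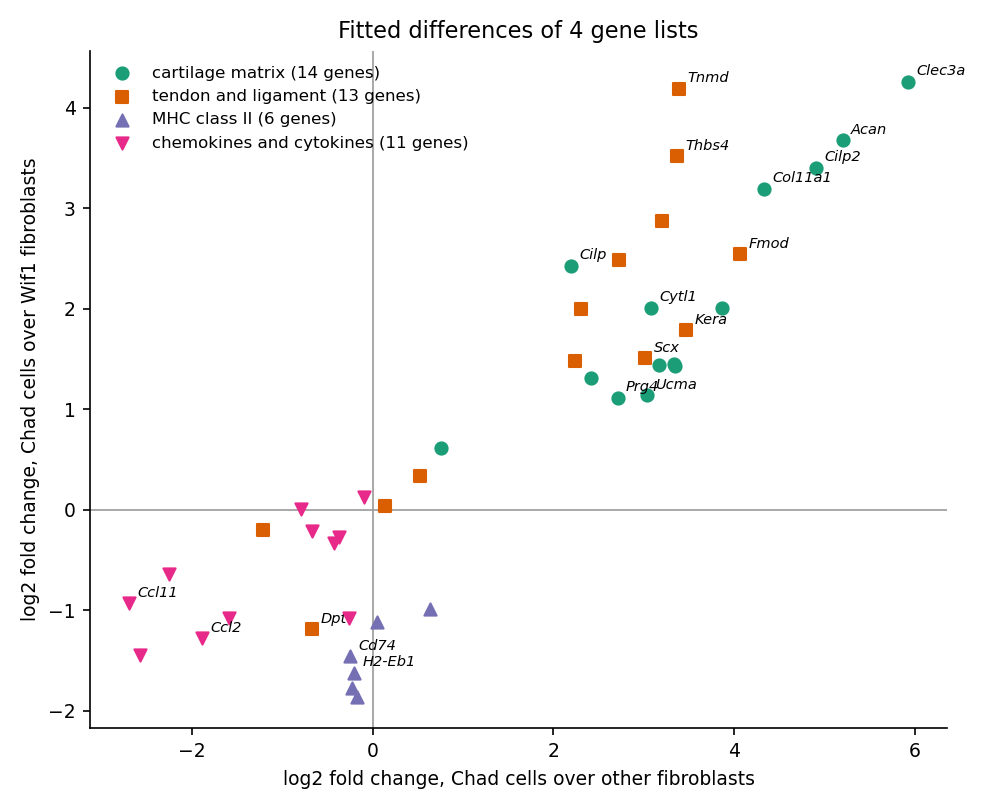
Fitted log2 difference of genes in 4 lists (cartilage matrix, tendon and ligament, MHC class II, chemokines and cytokines) for Chad cells over other fibroblasts on the horizontal axis and over Wif1 fibroblasts on the vertical axis. Cartilage and tendon genes lie mostly above 0 on both axes, with medians over the genes tested of 3.12 and 2.73 against other fibroblasts and 1.73 and 1.79 against Wif1 fibroblasts, and the 6 MHC class II genes lie below 0 against Wif1 fibroblasts. Both comparisons share the Chad cells.

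The genes lower in Chad cells than in Wif1 fibroblasts were of another kind. Coch, cochlin, a secreted matrix protein of the inner ear and eye, was at 0, 0 and 2.92 CPM in K/B.g7 Chad cells and 0, 0 and 3.93 CPM in B.g7 Chad cells. Wif1 fibroblasts had 66.8, 23.4 and 48.8 CPM in K/B.g7 and 64.0, 70.8 and 59.7 CPM in B.g7, so the groups did not overlap (-4.56 ± 0.27, adjusted p = 1.1e-08). Prss35, a serine protease-like protein, averaged 13.7 ± 5.32 CPM against 147 ± 76.7 CPM (-3.02 ± 0.17), and Id4, an inhibitor of basic helix-loop-helix factors, averaged 17.9 ± 7.87 CPM against 130 ± 30.4 CPM (-2.50 ± 0.15).

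Valve development genes were lower in 8 of 18 tested and higher in 3 (Nfatc1, Prrx1 and Prrx2). Postn, periostin, a matricellular protein of valve interstitium, averaged 532 ± 129 CPM in Chad cells and 939 ± 80.1 CPM in Wif1 fibroblasts with no overlap (-0.81 ± 0.11). Tbx20, a cardiac T-box factor, averaged 341 ± 96.9 CPM against 645 ± 112 CPM (-0.85 ± 0.10), and Vcan, versican, 223 ± 84.9 CPM against 603 ± 150 CPM (-1.34 ± 0.13). All 6 MHC class II genes tested were lower, among them Cd74 (-1.46 ± 0.33), H2-Aa (-1.78 ± 0.22) and H2-Eb1 (-1.62 ± 0.24). Class II levels varied widely between libraries, and H2-Aa reached 99.1 CPM in its highest Chad cell library. In the list of MHC class I and interferon-gamma genes, 9 of 19 were lower.

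Wif1 also divided the Chad cells themselves. A Wif1 UMI was found in 1304 of them, 65.7%, with 82.6%, 53.4% and 62.2% in K/B.g7 and 50.4%, 62.7% and 71.7% in B.g7. In Pecam1 cells the share ranged from 2.55% to 12.5%, so detection in Chad cells exceeded that in Pecam1 cells in every library. Wif1-positive Chad cells had median UMIs of 5095.5, 5899.5 and 3653 in K/B.g7 and 3941, 2315 and 6465 in B.g7, against 4493, 5321 and 3314.5 and 2676.5, 2130 and 5121.5 in Wif1-negative ones, so they were deeper in all 6 libraries. The part of depth in this split was not tested. The split and its genes were chosen after their values had been seen and are given as levels in CPM, with no test.

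Leaving out Wif1 and the genes that chose the cells, 249 list genes had at least 150 UMIs in Chad cells, and 29 of them were higher in the Wif1-positive cells of all 6 libraries and 33 lower. Cartilage matrix genes made up 9 of those higher, of 15 with enough UMIs, and 1 of those lower, Cilp. Ucma averaged 310 ± 224 CPM in Wif1-positive and 88.8 ± 59.3 CPM in Wif1-negative Chad cells (SD, n = 6 libraries each). Acan averaged 81.6 ± 75.7 CPM against 28.2 ± 26.0 CPM, Col9a1 130 ± 166 CPM against 31.0 ± 47.8 CPM, and Clec3a 33.4 ± 25.2 CPM against 6.99 ± 7.97 CPM. Each was higher in the Wif1-positive cells of all 6 libraries, and all 4 overlapped across libraries.

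The Wif1-negative Chad cells carried more of another set. Thbs4 was at 386, 313 and 265 CPM in Wif1-positive Chad cells of K/B.g7 and 698, 217 and 223 CPM in those of B.g7, against 1534, 1314 and 847 CPM in Wif1-negative Chad cells of K/B.g7 and 2605, 2650 and 908 CPM in those of B.g7. The summed levels of the 2 kinds of cell did not overlap. Pi16 averaged 359 ± 70.1 CPM against 1077 ± 249 CPM, Mfap5, a microfibril protein, 759 ± 137 CPM against 1600 ± 274 CPM, and Cilp 404 ± 63.6 CPM against 1020 ± 235 CPM, likewise without overlap. The B.g7 library of 8 weeks had 19 Wif1-negative Chad cells, and 1 Chad cell held 128 of its 208 Thbs4 UMIs. Per cell, Wif1 was found there in 64.7% of Chad cells with a Thbs4 UMI and 61.8% of those without. Pooled over libraries these shares were 55.9% and 72.7%.

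Col11a1 and Fmod differed between the 2 kinds of cell by less than their spread between libraries. Col11a1 averaged 298 ± 275 CPM in Wif1-positive and 306 ± 261 CPM in Wif1-negative Chad cells, and Fmod 2107 ± 651 CPM and 1757 ± 562 CPM. Tnmd went with the Wif1-negative cells. It averaged 32.6 ± 28.6 CPM in Wif1-positive cells and 248 ± 202 CPM in Wif1-negative cells and was lower in 5 of 6 libraries, being at 0 in both in the sixth. At the level of single cells pooled over libraries, Wif1 was found in 23.3% of Chad cells with a Tnmd UMI and 69.5% of those without, and Acan in 3.68% and 13.5%.

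**Figure D4:**
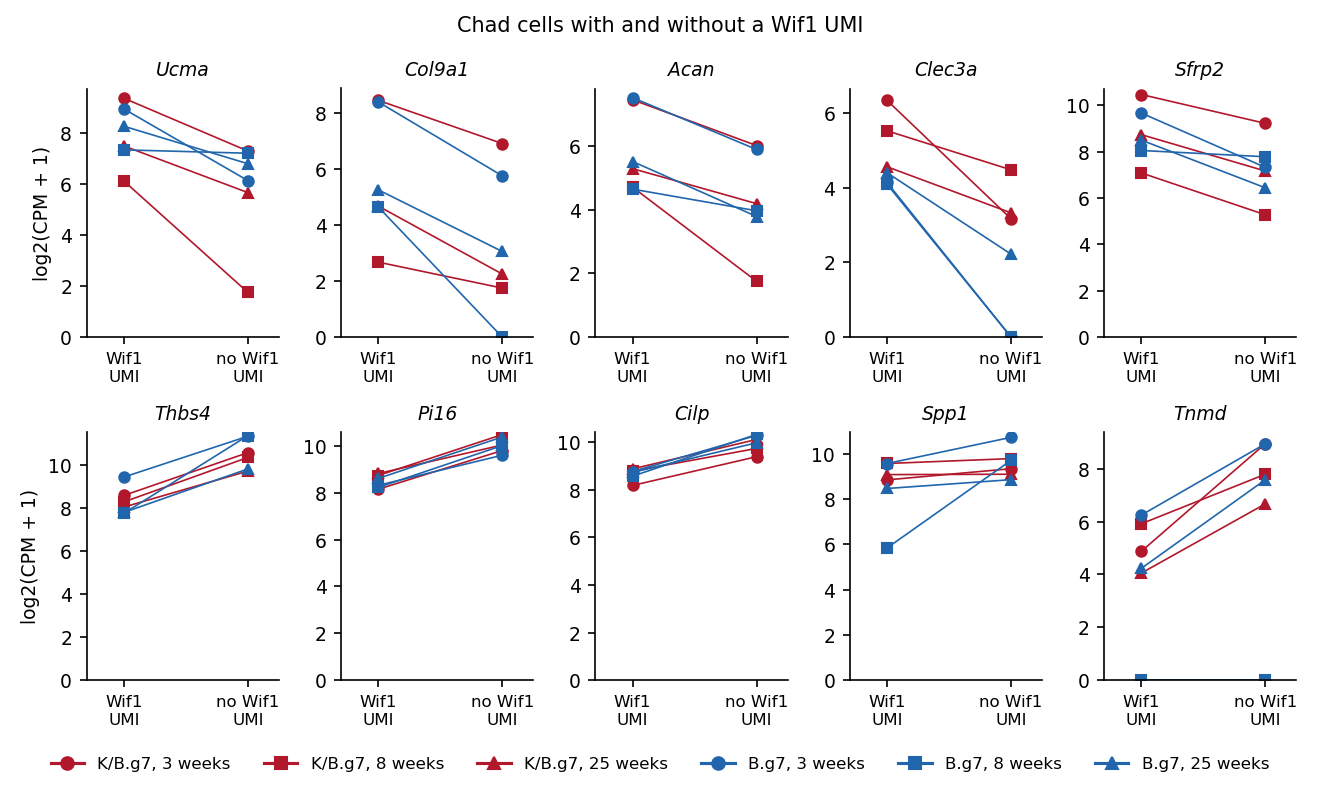
Levels of 10 genes as log2(CPM + 1) in Chad cells with a Wif1 UMI and without one, one point per library. Ucma, Col9a1, Acan, Clec3a and Sfrp2 are higher with Wif1 in all 6 libraries, and Thbs4, Pi16, Cilp and Spp1 are lower in all 6.

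Collagen II marked a handful of Chad cells of young valves. Of 2345 Col2a1 UMIs in Chad cells, 95.6% lay in 13 cells with at least 10 each, 10 of them in K/B.g7 at 3 weeks and 3 in B.g7 at 3 weeks. All 13 held Comp and Wif1, 11 held Cnmd, 11 held Sox9 and 7 held Scx, while none held Tnmd. Among fibroblasts that were not Chad cells, 3 reached 10 Col2a1 UMIs. All 3 lay in B.g7 at 8 weeks, where Chad cells held 0 Col2a1 UMIs.

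K/B.g7 and B.g7 Chad cells were compared to see how the cells of inflamed valves differed from those of control valves. Of 8858 genes tested with age as a block, 12 were higher in K/B.g7 (0.135%) and 1 was lower (0.0113%). No cartilage gene of 17 tested and no tendon gene of 13 passed, with medians of -0.18 and -0.14 on the log2 scale and 0.01 over all genes. DESeq2 called none, with 86 genes at an unadjusted p under 0.05, and edgeR without the age block called none, with 107. Counts of this design were simulated with the same dispersion, 0.0402, for every gene. In them 34% of genes changed 2-fold and 95.5% of those changed 4-fold were recovered, so moderate differences could be missed. Recovery for genes of wider spread was not measured.

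Of 10 chemokine and cytokine genes tested, 2 passed, and both were higher in K/B.g7. Cxcl14, which attracts monocytes and dendritic cells, was at 2.51, 301 and 77.0 CPM in K/B.g7 Chad cells of 3, 8 and 25 weeks, against 0, 0 and 14.4 CPM in B.g7 Chad cells. Its fitted log2 difference was 3.06 ± 0.40 (adjusted p = 1.3e-07). Ccl19, which draws T cells and dendritic cells through CCR7, was at 15.1, 198 and 135 CPM in K/B.g7 and 7.0, 67.4 and 32.3 CPM in B.g7 (1.73 ± 0.31, adjusted p = 0.00065). The genotypes overlapped across ages for both genes, and K/B.g7 was higher at each age. At 3 weeks the Cxcl14 level of K/B.g7 rested on 4 UMIs in 2 of 305 Chad cells, against 0 UMIs in 117 Chad cells of B.g7. At 8 weeks the 5 highest of 161 K/B.g7 Chad cells held 58.0% of 295 Cxcl14 UMIs. For Ccl19 in that library, the 5 highest cells held 49.5% of 194 UMIs. The Cxcl14 level of 0 in B.g7 at 8 weeks came from 51 Chad cells with 192833 UMIs in all. In other fibroblasts Cxcl14 was at 38.8, 762 and 320 CPM in K/B.g7 and 39.7, 77.6 and 161 CPM in B.g7. Ccl19 was there at 51.5, 151 and 145 CPM in K/B.g7 and 26.6, 62.4 and 44.8 CPM in B.g7. Pecam1 cells had 10.6, 23.1 and 41.6 CPM of Ccl19 in K/B.g7 and 1.47, 9.26 and 15.9 CPM in B.g7. Their Cxcl14 was at 0.440, 42.8 and 24.1 CPM in K/B.g7 and 0, 3.27 and 3.02 CPM in B.g7. The part of free RNA in these differences was not tested.

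Scn7a, a sodium channel family gene, was at 15.7, 88.9 and 103 CPM in K/B.g7 Chad cells and 2.33, 20.7 and 28.9 CPM in B.g7 Chad cells (1.88 ± 0.34). Gstp1, a glutathione transferase, was at 87.4, 136 and 125 CPM in K/B.g7 and 28.0, 20.7 and 44.1 CPM in B.g7, with no overlap (1.70 ± 0.29, adjusted p = 0.00026). Pecam1 cells had 67.3, 118 and 117 CPM of Gstp1 in K/B.g7 and 18.3, 48.8 and 45.4 CPM in B.g7, so the genotypes did not overlap there either. Fmo2 (1.60 ± 0.36) and Nme2 (1.30 ± 0.31) completed the genes named by the rule, and Gstp1 has near-identical copies in the genome, so its counts are uncertain.

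The remaining calls were 4 hemoglobin genes, Myh11, Ctla2a and, lower in K/B.g7, Cdo1, named after their values were seen. Of 6697 hemoglobin UMIs in Chad cells, 92.6% lay in 15 cells. Without cells rich in hemoglobin, 5 genes were higher and none lower, and without marked doublets 6 were higher. Xist, expressed from the inactive X of female cells, was found in 23.3%, 59.6% and 24.1% of K/B.g7 Chad cells and 31.6%, 52.9% and 79.5% of B.g7 Chad cells. Other fibroblasts held it in 53.9%, 53.6% and 23.4% of cells in K/B.g7 and 33.9%, 87.5% and 62.0% in B.g7. The share of cells with Xist thus differed between libraries and, in some libraries, between the cell groups. In the genotype fit restricted to Chad cells with Xist and no Y-linked UMI, 2 genes were higher. The comparisons between cell groups were not repeated by sex. Leaving out both libraries of 3 weeks gave 62 higher and 18 lower.

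Age moved more genes in Chad cells than genotype did. Between 25 and 3 weeks, 349 of 8858 genes tested were higher at 25 weeks (3.94%) and 164 lower (1.85%). The median over all genes was 0.04. Cartilage matrix genes fell in 12 of 17 tested with none higher (median -1.40), and tendon genes fell in 6 of 13 with none higher (median -0.80). Among 9 chondrogenic transcription factors and 17 matrix-binding receptors, none passed. The number of calls rested on single libraries: without K/B.g7 at 3 weeks 69 genes were higher, and without K/B.g7 at 25 weeks 45 were lower, while without B.g7 at 3 weeks 625 were higher and 549 lower.

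Cartilage collagens were among the genes lower at 25 weeks. Col9a1, a chain of collagen IX that decorates cartilage fibrils, was at 314, 4.09 and 17.3 CPM in K/B.g7 Chad cells at 3, 8 and 25 weeks, and 212, 15.6 and 30.2 CPM in B.g7 Chad cells. Both libraries of 3 weeks were above all later ones (log2 difference of 25 over 3 weeks -3.56 ± 0.35, adjusted p = 1.5e-12). Col9a3 was at 123, 4.09 and 4.25 CPM in K/B.g7 and 166, 0 and 9.62 CPM in B.g7 (-4.46 ± 0.37). At 3 weeks the 5 highest cells held 48.5% of 196 Col9a3 UMIs in K/B.g7 and 73.2% of 71 in B.g7. For Col9a1 they held 25.5% of 499 UMIs in K/B.g7 and 50.5% of 91 in B.g7. Col2a1 was at 1251, 1.02 and 2.92 CPM in K/B.g7 and 732, 0 and 12.7 CPM in B.g7, a level carried by the 13 cells described above. Without those cells, 109 genes were lower at 25 weeks and 287 higher.

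Acan followed the same course, at 157, 15.3 and 30.8 CPM in K/B.g7 and 128, 20.7 and 37.2 CPM in B.g7 (-2.12 ± 0.30, adjusted p = 5.1e-07). Col11a1 was at 536, 114 and 186 CPM in K/B.g7 and 753, 98.5 and 144 CPM in B.g7 (-1.96 ± 0.32). Cilp2 was at 763, 146 and 349 CPM in K/B.g7 and 921, 197 and 341 CPM in B.g7 (-1.28 ± 0.31). In each of these genes the libraries of 3 weeks were highest and those of 8 weeks lowest in both genotypes. Ucma fell by 1.38 ± 0.36 with all libraries but was 0.0115 without K/B.g7 at 3 weeks.

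Among tendon genes, Scx was at 678, 232 and 239 CPM in K/B.g7 and 525, 264 and 290 CPM in B.g7 (-1.21 ± 0.32, adjusted p = 0.0098). Thbs4 and Tnmd fell by 1.13 ± 0.33 and 1.69 ± 0.38 on the log2 scale. Fmod, at 2140, 1040 and 2044 CPM in K/B.g7 and 2897, 1794 and 2071 CPM in B.g7, did not pass (adjusted p = 0.68), and neither did Prg4 (0.57 ± 0.32, adjusted p = 0.32). Lower at 25 weeks were also Cthrc1, a collagen-modifying secreted protein, at 407, 51.1 and 51.3 CPM in K/B.g7 and 254, 104 and 56.0 CPM in B.g7 (-2.67 ± 0.33), and Fbn2, the fetal fibrillin (-2.20 ± 0.38).

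Complement, MHC class II and chemokine genes were higher at 25 weeks. Complement genes rose in 5 of 8 tested (median 1.83), all 4 MHC class II genes tested rose, and chemokines and cytokines rose in 5 of 10. C3, the central complement component, was at 2.51, 628 and 189 CPM in K/B.g7 Chad cells and 0, 545 and 115 CPM in B.g7 Chad cells, or 973 UMIs at 25 weeks and 4 at 3 weeks, pooled over genotypes. Cd74, the class II invariant chain, was at 0, 243 and 15.1 CPM in K/B.g7 and 0, 104 and 28.9 CPM in B.g7, and was at least 13.7-fold higher at 25 weeks against a floor of 3 UMIs over the pooled Chad cells of 3 weeks. C4b was at 27.0, 194 and 145 CPM in K/B.g7 and 7.0, 150 and 151 CPM in B.g7 (2.89 ± 0.37).

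C3 was also present outside Chad cells. At 25 weeks C3 in Chad cells was at 60.1% of its level in other fibroblasts in K/B.g7 and at 17.2% of it in B.g7, and in Pecam1 cells at 39.8% and 29.4%. At 3 weeks the values were 2.28% and 0% in Chad cells and 6.0% and 5.59% in Pecam1 cells. For Smoc2, a marker of other fibroblast groups, at 25 weeks, Chad cells reached 32.8% of the level in other fibroblasts in K/B.g7 and 18.9% of it in B.g7, and Pecam1 cells 11.3% and 5.87%. Cd74 at 25 weeks was carried by few Chad cells, 25 of 990 in K/B.g7 and 10 of 361 in B.g7, and the 5 highest cells of K/B.g7 held 64.9% of its UMIs, those of B.g7 90.9%. Pecam1 cells of 25 weeks had a Cd74 level of 84.2 CPM in K/B.g7 and of 131 CPM in B.g7. Ptprc cells reached 3918 CPM in the K/B.g7 library of that age and 8319 CPM in that of B.g7. Markers of other cells moved with age as well. Of 4 red cell genes tested 3 were higher at 25 weeks, of 6 mural genes 2 (Myh11 and Rgs5), and of 11 markers of other fibroblast groups 3 (Cd248, Smoc2 and Tcf21) with 2 lower (Rbp4 and Thbs4). Trac, the T cell receptor alpha constant gene and the only T cell marker tested, was lower at 25 weeks (-4.06 ± 0.72). Summed red cell genes ranged from 12.6 to 4969 CPM in Chad cells of K/B.g7 and from 21.0 to 425 CPM in those of B.g7. The part of other cells or free RNA in these changes was not tested.

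**Figure D5:**
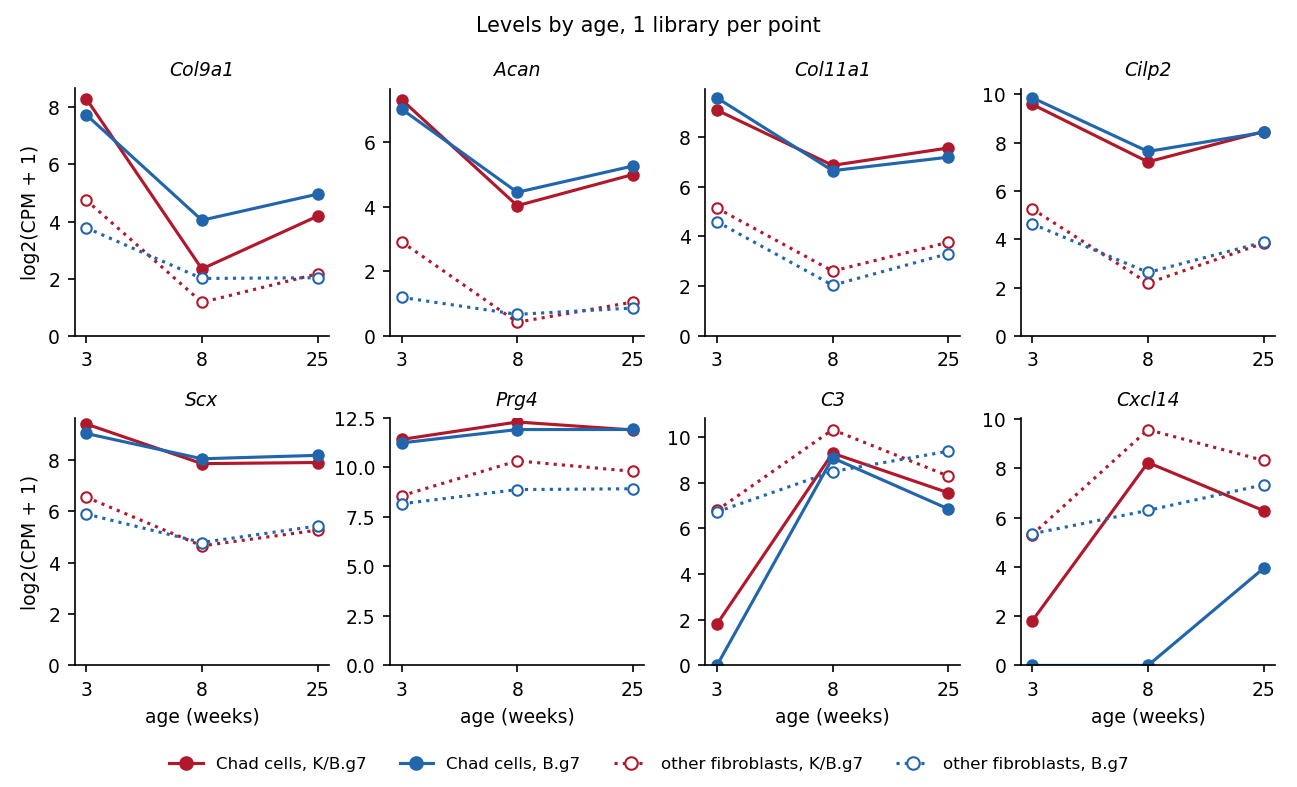
Levels of 8 genes as log2(CPM + 1) at 3, 8 and 25 weeks in K/B.g7 and B.g7, with Chad cells as solid lines and other fibroblasts as dotted lines. Col9a1, Acan, Col11a1, Cilp2 and Scx are highest at 3 weeks in both genotypes, while C3 and Cxcl14 are at most 2.51 CPM in Chad cells at 3 weeks.

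Whether these differences were particular to Chad cells was tested by interaction terms. The log2 difference of K/B.g7 over B.g7 was more positive in Chad cells than in other fibroblasts for 34 of 11884 genes (0.286%) and more negative for 27 (0.227%). For 25 over 3 weeks it was more positive for 171 genes (1.44%) and more negative for 60 (0.505%). Of 16 cartilage genes, 4 had a more negative age difference in Chad cells than in other fibroblasts: Col9a1 (-1.15 ± 0.23), Col9a3 (-3.24 ± 0.43), Col11a2 (-1.18) and Hapln1 (-1.26 ± 0.28). Acan, Col11a1 and Cilp2 did not pass. In other fibroblasts Col11a1 was at 34.2, 5.09 and 12.6 CPM in K/B.g7 and 23.1, 3.11 and 8.90 CPM in B.g7, so 3 weeks was highest there as well.

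The genotype interaction included Spp1, which was at 23.2, 51.8 and 35.0 CPM in other fibroblasts of K/B.g7 and 13.9, 2.67 and 12 CPM in those of B.g7. In Chad cells the genotypes overlapped, with K/B.g7 lower than B.g7 at 3 weeks and higher at 8 and 25 weeks. The B.g7 library of 8 weeks held 64 Spp1 UMIs in 13 of 51 Chad cells, and 5 cells held 82.8% of them. The interaction was -1.80 ± 0.18 (adjusted p = 3.6e-19). Thbs4 (-0.86 ± 0.17), Prg4 (-0.72 ± 0.16) and Cilp (-0.62 ± 0.17) also had a more negative K/B.g7 over B.g7 difference in Chad cells than in other fibroblasts, and Cytl1 (0.81 ± 0.16), Chrdl1 (0.92 ± 0.21), Wif1 (0.62 ± 0.17) and Cxcl14 (1.61 ± 0.32) a more positive one. DESeq2 called 2 genes more positive and 1 more negative for genotype, and 13 and 4 for age. Against comparison cells drawn to the same depth the counts were 8 and 4 for genotype and 55 and 6 for age.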

How the data were processed

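Mitral valve cells of 2 genotypes at 3 ages were profiled with the 10x Genomics 3′ protocol, per the labels' protocols. The authors deposited unnormalized counts of UMIs per gene and barcode for each library, made with Cell Ranger 3.1.0 on mm10, per the submitters' processing notes. The members and gene lists were chosen with earlier results of these data known. Reads from overlapping or near-identical genes may be split or lost in such counts.

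Cells passed the gates stated in the results, raw counts were summed per cell group and library, and sums were tested by the quasi-likelihood method of edgeR 4.0.16 in R 4.3.3, with TMM factors and genes kept by filterByExpr, at an adjusted p under 0.05. The genes that chose the cells were left out of the sums fitted for cell groups and of all tests. Cell group fits had the library as a block, and fits within Chad cells had age and genotype. The labels give each age the same replicate number in both genotypes, and deviations of same-aged libraries correlated at 0.365, 0.204 and 0.197, so age was kept as the block. Fits for genotype, age and the interactions left 2 residual degrees of freedom, and those for cell groups 5. Very small p-values thus rest also on variance estimates shared across genes. SE is the fitted log2 difference divided by the square root of F. CPM values are counts per 1000000 UMIs, taken over all UMIs of a cell group. Scrublet in scanpy 1.11.5 ranked doublets, at 0.8% per 1000 barcodes. Exact tests and intervals used scipy 1.17.1, and the floor was 3 counts.

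The rule named up to 12 genes per direction (10 for genotype and age, 5 for interactions) with the largest change among those passing. For cell groups, genotype and age, these had 1 sign in every library, age or genotype. Their mean was at least 20 CPM in the higher group. Interaction genes had no such limit on sign or level. Up to 4 genes of each list were also named by p. Mitochondrial, ribosomal, hemoglobin, immunoglobulin and sex-linked genes were left out of the naming by size. A few further list genes were named after their values were seen. Of the genes the rule named, 1 is not reported here.

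Tested on simulated data, the fit against other fibroblasts recovered 87.8% of 2-fold changes over 12094 genes. In each simulation all genes had the same dispersion. Alternatives were RLE factors, DESeq2 1.42.0, no low-count filter, stricter membership (at least 2 Chad UMIs and 3 in sum), depth-matched comparison cells, marked doublets left out, no block, and each library or age left out.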

Additional observations from a re-analysis of the deposited data

Results flagged for a closer look

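The genes below were picked out because their difference between K/B.g7 and B.g7, or between 25 and 3 weeks, was not the same in Chad cells as in other fibroblasts by the interaction term of edgeR's quasi-likelihood test. Values are log2 differences in Chad cells minus those in other fibroblasts. No explanation was tested for any of them.

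For genotype, genes on the positive side were Lrrn4 at 3.74, Myl7 at 3.58, Upk3b at 3.17, Ifit1 at 3.05 and Nkain4 at 2.70. All 4 mesothelial markers tested passed, and 1 of 4 cardiac muscle genes, Myl7. Upk3b, a surface protein of mesothelium, was found at 0, 2.04 and 24.7 CPM in the Chad cells of the 3 K/B.g7 libraries, in order of age, and at 0, 0 and 23.2 CPM in those of B.g7. In other fibroblasts it was at 0.126, 5.06 and 14.9 CPM in K/B.g7 and 5.91, 19.7 and 127 CPM in B.g7, so B.g7 fibroblasts without Chad at 25 weeks stood apart. On the negative side were Wfdc2 at -4.41, Cenpf at -4.07, Slurp1 at -3.85, Cdc20 at -3.61 and C1qa at -3.33. Of 49 Cenpf UMIs in Chad cells, 35 lay in 2 cells of B.g7 at 3 weeks, and 41 of 58 C1qa UMIs lay in 1 cell of the same library.

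Genes of the named lists with a genotype interaction were Spp1 at -1.80, Kera, a corneal and tendon proteoglycan, at -1.10, Thbs4 at -0.86, Prg4 at -0.72, Cilp at -0.62, Wif1 at 0.62, Cytl1 at 0.81, Chrdl1 at 0.92 and Cxcl14 at 1.61.

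For age, Myl7 at 11.31, Ccl11 at 10.87, Aoc3 at 9.81 and Lsmem1 at 9.70 had no UMI in Chad cells of 3 weeks, and such fitted values depend on the prior count and are not bounds. Ccl11 was at 0, 36.8 and 23.9 CPM in Chad cells of K/B.g7 and 0, 0 and 7.43 CPM in those of B.g7. Genes on the negative side were Top2a at -4.60, Cenpf at -4.31, C1qa at -4.30, Ccnb2 at -3.66 and Fcer1g at -3.45. Of 15 proliferation genes tested 4 were negative, and of 5 macrophage markers 2. Cartilage genes were Col9a3 at -3.24, Hapln1, the link protein of aggrecan, at -1.26, Col11a2 at -1.18 and Col9a1 at -1.15. Sfrp2 at -1.11 and Spp1 at -0.96 were negative too. Further positive genes were C3 at 4.19, Dpep1 at 2.61, Cxcl14 at 1.99, Smoc2 at 1.87 and Tcf21 at 1.48. Of 12 markers of other fibroblast groups tested, 6 were positive and none negative.

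Chad UMIs in Pecam1 cells, which no comparison used, reached 4.86% of cells in K/B.g7 at 25 weeks, the highest of the 6 libraries and above the 1.61% of B.g7 at the same age.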

How the results depend on the processing

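Against other fibroblasts and Wif1 fibroblasts no named gene changed direction under any alternative run. Of 846 values for 61 named genes against other fibroblasts, 10 lost the call, and of 517 values for 40 genes against Wif1 fibroblasts, 20 did. For genotype, 80 of 206 values lost it and none reversed. For age, 54 of 487 did, and Ucma reversed, with -2.39 to 0.0115 when single libraries were left out. Among the interactions, 75 of 227 values lost the call for genotype and 65 of 242 for age. With DESeq2, 17 named genes lost the genotype interaction and 2 kept it, against 10 and 3 for age. The interactions of C1qa reversed as well (genotype -6.06 to 1.17, age -9.54 to 2.02, single libraries left out), as did that of Fcer1g with age (-7.36 to 6.29). The cause of these changes was not tested. Setups that left out cells rich in Col2a1 or hemoglobin were chosen after seeing the data.

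Counts that moved by more than 1.5 times are given as higher and lower. Without the library block as replicate pairing, calls against other fibroblasts were 667 and 506 and those against Wif1 fibroblasts 211 and 173. Without the age block the replicate pairing was dropped for genotype as well, which left 0 and 0 with edgeR and 107 genes at an unadjusted p under 0.05. The block changed the age counts to 283 and 136 when left out, within 1.5 times. Matching comparison cells on UMIs gave 844 and 767 against other fibroblasts, 456 lower against Wif1 fibroblasts, 8 and 4 for genotype by cell group, and 55 and 6 for age by cell group. DESeq2 gave 0 and 0 for genotype (86 at an unadjusted p under 0.05), 83 and 43 for age, 2 and 1 for genotype by cell group, and 13 and 4 for age by cell group. Without a low-count filter there were 1055 lower against Wif1 fibroblasts, 27 and 7 for genotype, and 104 higher for age by cell group. Stricter membership gave 2 lower for genotype, 14 lower for genotype by cell group, and 98 and 36 for age by cell group. Leaving out marked doublets gave 6 and 0 for genotype and 37 lower for age by cell group. For genotype, RLE factors gave 2 lower, cells with Xist and no Y-linked UMI 2 and 0, no cells rich in hemoglobin 5 and 0, no libraries of 3 weeks 62 and 18, none of 8 weeks 2 lower and none of 25 weeks 2 lower. Leaving out the 13 cells rich in Col2a1 gave 109 lower with age.

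Leaving out single libraries gave 1012 to 1372 higher and 988 to 1431 lower against other fibroblasts, and 502 to 696 and 446 to 684 against Wif1 fibroblasts. For genotype the ranges were 11 to 60 and 2 to 25, for age 69 to 625 and 45 to 549, for genotype by cell group 23 to 57 and 12 to 36, and for age by cell group 16 to 164 and 29 to 53. The genotype difference in the share of Chad cells ranged from 0.778 to 3.54 percentage points, from 1.30 to 2.47 under other thinning, membership, doublet and gate settings, and from 1.07 to 2.38 without both libraries of an age. Paired by age as a replicate block it stayed at 1.93 (p = 0.25, exact permutation test). These omissions and the pairing were added after seeing the data. Depth limited most what could be seen in B.g7 at 8 weeks, with 51 Chad cells, and in simulated counts 8.60% of 2-fold age changes were recovered.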
